A study of Mus musculus with 9 samples.

Results

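The genes examined were 9 markers of disease-associated microglia: Apoe, Lpl, Cst7, Spp1, Itgax, Gpnmb, Cd9, Cd63 and Cd68. They were chosen by name and matched by symbol, 9 of the 24411 gene rows in the deposited counts, and all 9 passed the filter on low counts that left 11002 genes for testing. Disease-associated microglia are a state of the brain's resident macrophages that was described around amyloid plaques in mouse models of Alzheimer's disease and also appears in demyelination and ageing. In that state the receptor TREM2 and its adaptor TYROBP sense lipids and lipoproteins, genes of phagocytosis, lipid handling and lysosomes are raised, and genes of resting, homeostatic microglia such as P2ry12 and Tmem119 are lowered. The products of the 9 genes carry or digest lipids (Apoe, Lpl), are secreted or adhesion proteins and a protease inhibitor (Spp1, Itgax, Cst7), or lie in lysosomal and tetraspanin-rich membranes (Gpnmb, Cd68, Cd9, Cd63).

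RNA was sequenced from primary mouse microglia in 9 libraries, 3 each of R848+IFN-α, R848 and IFN-α. Cells of the outbred ICR strain came from brains of 3-day-old pups, grew as mixed glial cultures, were shaken off and were plated for 24 h. All 3 groups were then treated for 4 h: the R848+IFN-α group with 1 µM R848 and 100 U/ml IFN-α, the R848 group with 1 µM R848, and the IFN-α group with 100 U/ml IFN-α. R848 (resiquimod) is a synthetic agonist of the endosomal receptor TLR7, and IFN-α belongs to the type I interferons. No group was untreated: a control named in the series' design is not analysed here, so every value below compares treatments with each other. Microglia of newborn pups in culture are a limited model of adult microglia, and the labels do not say whether replicates came from separate cultures, so the p-values here reflect the spread among libraries, part or all of which may be technical.

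Libraries held 2505941 to 6005578 counts in genes, of which the 9 genes together made up 1.61% to 2.65%, and the ribosomal transcript Rn45s held 13.3% to 26.1%. Levels are given in CPM, the count of a gene scaled to a fixed library total with TMM factors, which ran from 0.831 to 1.17 and were under 0.9 in all R848+IFN-α libraries. The 10 microglia and macrophage markers summed to 3109 to 3430 CPM in R848+IFN-α, 2678 to 3000 CPM in R848 and 3764 to 3994 CPM in IFN-α. The 11 astrocyte markers summed to 2395 to 3443 CPM in R848+IFN-α, 1459 to 1716 CPM in R848 and 1165 to 1469 CPM in IFN-α, with none at 0 in any group. Of the 10 astrocyte markers tested, 9 were higher in R848+IFN-α than in R848, or 5 under upper-quartile factors and 3 under library totals in place of TMM factors, and none was lower. In R848+IFN-α against IFN-α, 5 were higher and none lower, or 5 and 1 with upper-quartile factors and 3 and 2 with library totals. In R848 against IFN-α, 2 were higher and 4 lower, or 3 and 3 with library totals. Over all genes tested, the shares called higher and lower were 19.2% and 16.7% in R848+IFN-α against R848. They were 18.5% and 14.7% in R848+IFN-α against IFN-α, and 18.4% and 19.0% in R848 against IFN-α. The 10 oligodendrocyte-lineage markers summed to 560 to 606 CPM in R848+IFN-α, 498 to 531 CPM in R848 and 642 to 757 CPM in IFN-α. For the 8 fibroblast and pericyte markers the sums were 221 to 360, 198 to 243 and 163 to 233 CPM, in the same order. Astrocytes also express Apoe, Cd9 and Cd63. The part of the astrocyte, oligodendrocyte, fibroblast, microglia and leukocyte markers in the results below was not tested. The 11 markers of border macrophages and other leukocytes in the files summed to 52.7 to 62.0 CPM in R848+IFN-α, 60.1 to 76.9 CPM in R848 and 107 to 115 CPM in IFN-α, with Cd163, Nkg7 and S100a9 at 0 in all 3 groups. Only Mrc1, Pf4 and S100a8 among them passed the filter: in R848 against IFN-α Mrc1 was lower by -1.39 ± 0.13, and Pf4 and S100a8 were higher by 1.24 ± 0.23 and 1.16 ± 0.25. In bulk RNA, fewer cells of a type and less RNA per cell cannot be told apart.

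Different genes of the 9 were highest under different treatments. Lpl was highest in R848, at 2.47-fold its level in IFN-α, and Cst7 was lowest there, at 0.413-fold. Itgax was 2.36-fold higher in R848 than in IFN-α and 2.28-fold higher in R848+IFN-α than in IFN-α. Spp1 was highest in IFN-α. In R848+IFN-α, Cst7 was 3.58-fold its level in R848, and Lpl was 0.487-fold.

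Cst7, Itgax and Spp1 changed in at least 2 of the 3 comparisons and have a promoter window in RefSeq's mouse assembly GRCm38.p6, so their sequences from 250 bases before the transcription start to 10 bases after it are shown, 5′ to 3′ on the gene's own strand, with motif matches in capitals. The Cst7 window is chr2:150570165-150570424 on the plus strand, the Itgax window chr7:128129300-128129559 on the plus strand, and the first of the Spp1 windows chr5:104434861-104435120 on the plus strand. Capitals mark an AP-1 match (TGANTCA) in Cst7 and Itgax, and in Spp1 an interferon-stimulated response element (GAAA followed after 2 bases by GAAA, here on the other strand) followed by the core bound by the myeloid factor PU.1 (GAGGAA).
Cst7: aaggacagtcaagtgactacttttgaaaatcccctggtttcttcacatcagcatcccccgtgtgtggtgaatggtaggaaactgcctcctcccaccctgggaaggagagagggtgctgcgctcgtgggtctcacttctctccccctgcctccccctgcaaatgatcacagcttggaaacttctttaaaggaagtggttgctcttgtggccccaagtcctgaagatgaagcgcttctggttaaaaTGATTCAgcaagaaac
Itgax: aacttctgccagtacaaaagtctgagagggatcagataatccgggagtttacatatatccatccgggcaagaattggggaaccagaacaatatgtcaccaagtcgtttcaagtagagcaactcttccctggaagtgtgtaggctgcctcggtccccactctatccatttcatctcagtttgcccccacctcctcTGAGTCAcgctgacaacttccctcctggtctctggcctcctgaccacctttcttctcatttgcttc
Spp1: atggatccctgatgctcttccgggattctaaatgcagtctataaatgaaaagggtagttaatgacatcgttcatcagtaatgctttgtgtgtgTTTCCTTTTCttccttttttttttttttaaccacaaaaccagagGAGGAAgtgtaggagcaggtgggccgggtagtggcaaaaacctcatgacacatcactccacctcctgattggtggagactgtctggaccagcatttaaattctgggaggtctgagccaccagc
The AP-1 match began at position -6 in Cst7 and at -56 in Itgax, where -1 is the base before the start. In Spp1 the response element match began at -157 and the GAGGAA match at -113.

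Windows of 300 bases were found for 8 of the 9 genes, all but Lpl, 11 windows in all, and each motif was searched on both strands. TGANTCA occurred in 4 of the 11 windows, in Cst7, Itgax, Gpnmb and Cd68, against 7.81% of the 32851 windows of all genes. The response element of paired GAAA letters occurred in 1 of the 11 windows, in Spp1 alone of the 8 genes, against 3.44% of all windows. GAGGAA occurred in 5 of the 11 windows, in Apoe, Spp1, Cd63 and Cd68, against 28.3% of all windows. The E-box CACGTG, held by 7.15% of all windows, the κB consensus, held by 8.46%, and the LXR-type repeat (TGACCT followed after 4 bases by TGACCT), held by 0.0152%, were in none of the 11 windows. These are letter matches within the windows and were not set against binding data.

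**Figure D1:**
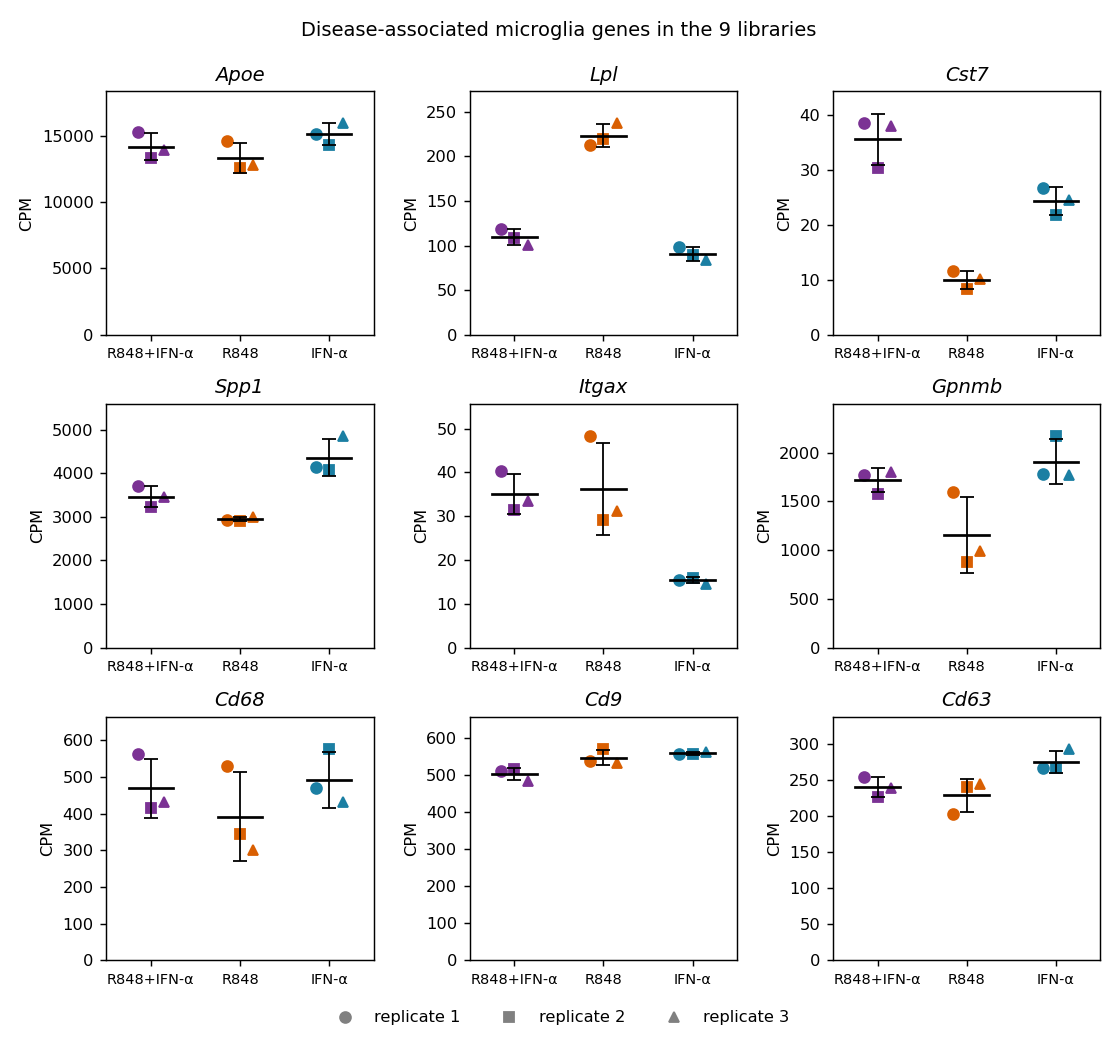
Level of each of the 9 genes in every library, in CPM on linear axes that start at 0. Points are libraries, long bars are group means and whiskers are ± 1 SD (n = 3). Lpl is highest in the 3 R848 libraries and Cst7 lowest there, Itgax is lowest in the 3 IFN-α libraries, and R848 replicate 1 lies above the other R848 libraries for Itgax, Gpnmb and Cd68.

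The lipid genes were Apoe, the lipoprotein through which glia pass cholesterol to other cells, and Lpl, lipoprotein lipase, which releases fatty acids from triglycerides. Apoe (chromosome 7, 19696109 to 19699188, minus strand, GRCm38) was the most abundant of the 9 genes per kilobase of exon, with 6637 CPM per kb in R848+IFN-α, 6231 in R848 and 7087 in IFN-α. That put it 5th, 4th and 4th among 10614 genes with a known length. Apoe measured 15332, 13302 and 13936 CPM in R848+IFN-α, 14609, 12573 and 12786 CPM in R848, and 15153, 14335 and 15969 CPM in IFN-α. The 3 groups of Apoe values lay close together, and R848+IFN-α overlapped both others. The log2 fold change was 0.09 ± 0.079 (SE) in R848+IFN-α against R848, with a 95% interval of -0.07 to 0.25 and an adjusted p of 0.394 by edgeR's quasi-likelihood test. It was -0.09 ± 0.079 in R848+IFN-α against IFN-α (adjusted p 0.388) and -0.19 ± 0.079 in R848 against IFN-α (adjusted p 0.0652). The last of these passed the threshold in 4 of 20 alternative settings. Among them were the fits without R848 replicate 1, at -0.27 (adjusted p 0.00182), and without R848+IFN-α replicate 1, at -0.19 (adjusted p 0.0451). With library totals alone, Apoe was lower in R848+IFN-α in both comparisons, at -0.29 against R848 (adjusted p 0.0488) and -0.40 against IFN-α (adjusted p 0.00973).

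Lpl (chromosome 8, 68880491 to 68907448, plus strand) measured 119, 108 and 101 CPM in R848+IFN-α, 213, 220 and 237 CPM in R848, and 98.7, 89.8 and 83.3 CPM in IFN-α. Every R848 library lay far above every library with IFN-α in it, and the R848+IFN-α libraries lay just above the IFN-α ones. Means were 109 ± 9.15 CPM in R848+IFN-α, 223 ± 12.5 CPM in R848 and 90.6 ± 7.74 CPM in IFN-α (SD, n = 3 each). Lpl was lower in R848+IFN-α than in R848, by a log2 fold change of -1.04 ± 0.099 (adjusted p 5.18e-10), and higher in R848 than in IFN-α, by 1.30 ± 0.10 (adjusted p 3.97e-12). Both calls held in all 20 alternative settings. R848+IFN-α against IFN-α gave 0.27 ± 0.11 with an adjusted p of 0.0517, and -0.04 with library totals alone. It passed in 6 of the 20 alternatives, among them without R848+IFN-α replicate 3 (adjusted p 0.0418), R848 replicate 1 (0.0202) or IFN-α replicate 1 (0.0375).

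Cst7 encodes cystatin F, an inhibitor of cysteine cathepsins in endosomes and lysosomes that also acts on cathepsin C, the activator of granule proteases. Cst7 (chromosome 2, 150570415 to 150578944, plus strand) rests on 362, 100 and 206 counts summed over the libraries of R848+IFN-α, R848 and IFN-α. It measured 38.5, 30.2 and 38.0 CPM in R848+IFN-α, 11.6, 8.23 and 10.1 CPM in R848, and 26.7, 21.7 and 24.5 CPM in IFN-α. The 3 groups did not overlap: R848+IFN-α was the highest, IFN-α the next and R848 the lowest. Means were 35.6 ± 4.63 CPM in R848+IFN-α, 9.96 ± 1.68 CPM in R848 and 24.3 ± 2.5 CPM in IFN-α (SD, n = 3 each).

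Against R848, Cst7 was higher in R848+IFN-α by 1.84 ± 0.18 on the log2 scale (adjusted p 9.07e-10). Against IFN-α it was higher in R848+IFN-α by 0.56 ± 0.16 (adjusted p 0.00707), and lower in R848 by -1.28 ± 0.19 (adjusted p 2.38e-06). Cst7 was the only one of the 9 genes called above both single agents (adjusted p 0.0198), a call that 7.33% of all genes tested received in that direction and 2.82% in the other. That call ended in 8 of 19 alternatives, among them the upper-quartile factors (adjusted p 0.0547), library totals alone (0.375) and DESeq2 (0.0706), and without R848+IFN-α replicate 1 (0.0857), R848+IFN-α replicate 3 (0.131), IFN-α replicate 2 (0.121) or IFN-α replicate 3 (0.0650). The call against IFN-α alone ended under library totals, at 0.25 (adjusted p 0.245), and when leaving out R848+IFN-α replicate 3 (adjusted p 0.0501).

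Spp1 encodes osteopontin, a secreted phosphoprotein that binds CD44 and integrins. Spp1 (chromosome 5, 104435118 to 104441050, plus strand) shares 309 exonic bases on its own strand with the predicted gene Gm42793, so its count is uncertain by reads from there. It measured 3708, 3230 and 3451 CPM in R848+IFN-α, 2921, 2914 and 3000 CPM in R848, and 4156, 4076 and 4860 CPM in IFN-α. The groups did not overlap, with IFN-α highest, R848+IFN-α between and R848 lowest. Means were 3463 ± 239 CPM in R848+IFN-α, 2945 ± 48.0 CPM in R848 and 4364 ± 431 CPM in IFN-α (SD, n = 3 each).

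Spp1 was lower in R848+IFN-α than in IFN-α by -0.33 ± 0.081 (adjusted p 0.00156) and lower in R848 than in IFN-α by -0.57 ± 0.081 (adjusted p 8.54e-07), and both calls held in all 20 alternatives. It was higher in R848+IFN-α than in R848 by 0.23 ± 0.081, or 1.18-fold (adjusted p 0.0233). That call ended with upper-quartile factors, at 0.10 (adjusted p 0.321), without R848+IFN-α replicate 1 (0.103), R848+IFN-α replicate 3 (0.0628) or R848 replicate 2 (0.0659), and the sign turned with library totals alone, at -0.15 (adjusted p 0.315).

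Itgax encodes integrin αX (CD11c), which pairs with the β2 chain Itgb2 to form complement receptor 4. Itgax (chromosome 7, 128129547 to 128150657, plus strand) was the least abundant of the 9 genes per kilobase, with 7.30 CPM per kb in R848+IFN-α, 7.53 in R848 and 3.20 in IFN-α. It measured 40.3, 31.5 and 33.4 CPM in R848+IFN-α, 48.3, 29.1 and 31.1 CPM in R848, and 15.5, 15.9 and 14.6 CPM in IFN-α. All 6 libraries with R848 lay above all 3 of IFN-α, and the R848+IFN-α and R848 libraries overlapped. Itgax was higher in R848+IFN-α than in IFN-α by 1.19 ± 0.19 (adjusted p 1.10e-05), and higher in R848 than in IFN-α by 1.24 ± 0.19 (adjusted p 3.19e-06), in all 20 alternatives. R848+IFN-α against R848 gave -0.05 ± 0.17, with an interval of -0.39 to 0.29 (adjusted p 0.840), 0.23 (adjusted p 0.270) without R848 replicate 1, and -0.43 (adjusted p 0.0319) with library totals alone.

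**Figure D2:**
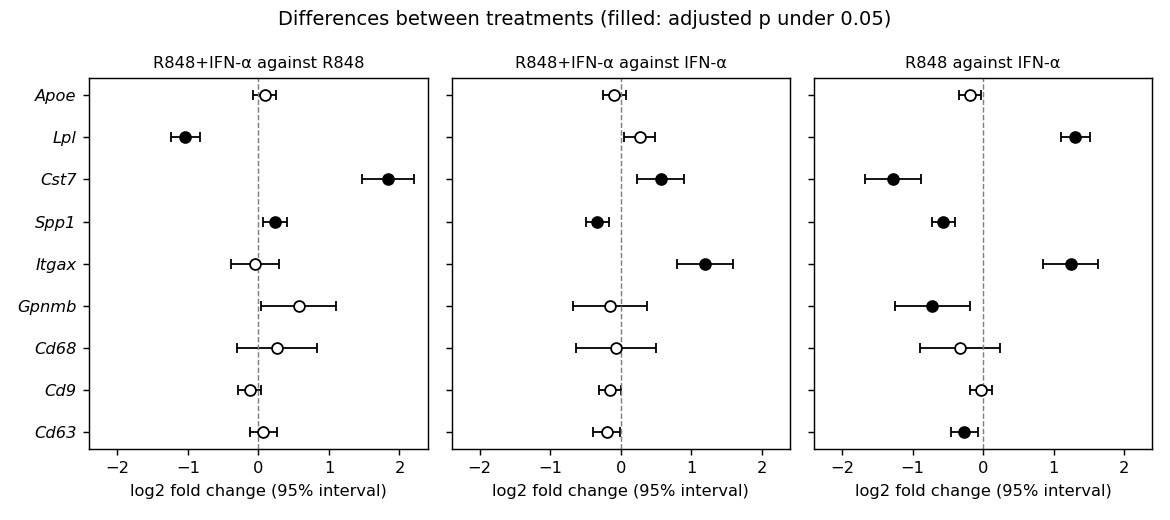
Log2 fold change of each of the 9 genes in the 3 comparisons, with 95% intervals from edgeR, where values above 0 are higher in the first-named treatment and filled points have an adjusted p under 0.05. Lpl lies at -1.04, 0.27 and 1.30 and Cst7 at 1.84, 0.56 and -1.28, from left to right, and the intervals of Gpnmb and Cd68 are the widest.

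Gpnmb and Cd68 are proteins of lysosomal membranes in macrophages: Gpnmb is a transmembrane glycoprotein whose gene is a target of the MiT transcription factors, and Cd68, macrosialin, is a heavily glycosylated protein used as a stain for phagocytic cells. Gpnmb (chromosome 6, 49036546 to 49070929, plus strand) measured 1769, 1579 and 1807 CPM in R848+IFN-α, 1601, 881 and 990 CPM in R848, and 1783, 2172 and 1775 CPM in IFN-α. R848 replicate 1 reached the lower edge of the R848+IFN-α libraries, while the other 2 R848 libraries lay far below every other library. Gpnmb was lower in R848 than in IFN-α by -0.72 ± 0.23, or 0.606-fold (adjusted p 0.0418), with no overlap. This call ended in 10 of 20 alternatives, with adjusted p up to 0.115, among them the leaving out of any library but R848 replicate 1 or R848 replicate 2. Without R848 replicate 1 the change was -1.04 (adjusted p 1.45e-14). R848+IFN-α against R848 gave 0.57 ± 0.22 (adjusted p 0.0938), and without R848 replicate 1 it gave 0.89 (adjusted p 2.48e-12). R848+IFN-α against IFN-α gave -0.15 ± 0.22 (adjusted p 0.662), and -0.47 (adjusted p 0.00896) with library totals alone.

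Cd68 (chromosome 11, 69664213 to 69666153, minus strand) measured 562, 416 and 431 CPM in R848+IFN-α, 530, 345 and 302 CPM in R848, and 469, 577 and 431 CPM in IFN-α. All 3 groups overlapped, with R848 replicate 1 again far above the other 2 R848 libraries. No comparison of Cd68 passed the test: the log2 fold change was 0.26 ± 0.24 in R848+IFN-α against R848 (interval -0.31 to 0.83, adjusted p 0.463), -0.07 ± 0.24 in R848+IFN-α against IFN-α (adjusted p 0.865) and -0.33 ± 0.24 in R848 against IFN-α (adjusted p 0.349). Without R848 replicate 1, 2 of them passed, at 0.55 in R848+IFN-α against R848 (adjusted p 0.0456) and -0.62 in R848 against IFN-α (adjusted p 0.0271). With library totals alone, R848+IFN-α against IFN-α passed at -0.38 (adjusted p 0.0498), and R848+IFN-α against R848 turned sign, at -0.11.

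The spread between replicates differed among the 9 genes. The coefficient of variation that edgeR estimated per gene was 0.202 for Cd68, 0.191 for Gpnmb and 0.119 for Itgax, and lay between 0.0744 and 0.0927 for the other 6, against 0.0955 over all genes. R848 replicate 1 stood at 138% of its group mean for Gpnmb, 135% for Cd68 and 134% for Itgax, and at 88.5% for Cd63. Rn45s took 22.0% of the counts of that library, against 16.9% and 14.8% in the other 2 R848 libraries. Its share was also the highest of the group in IFN-α replicate 1 (26.1%) and R848+IFN-α replicate 2 (21.0%). For Gpnmb, Cd68 and Itgax, the former stood at 93.4%, 95.3% and 101% of its group mean. The latter stood at 91.9%, 88.6% and 89.9%. The part of Rn45s in the spread of the 3 genes was not tested, and leaving Rn45s out of the totals and the fit was among the alternatives.

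**Figure D3:**
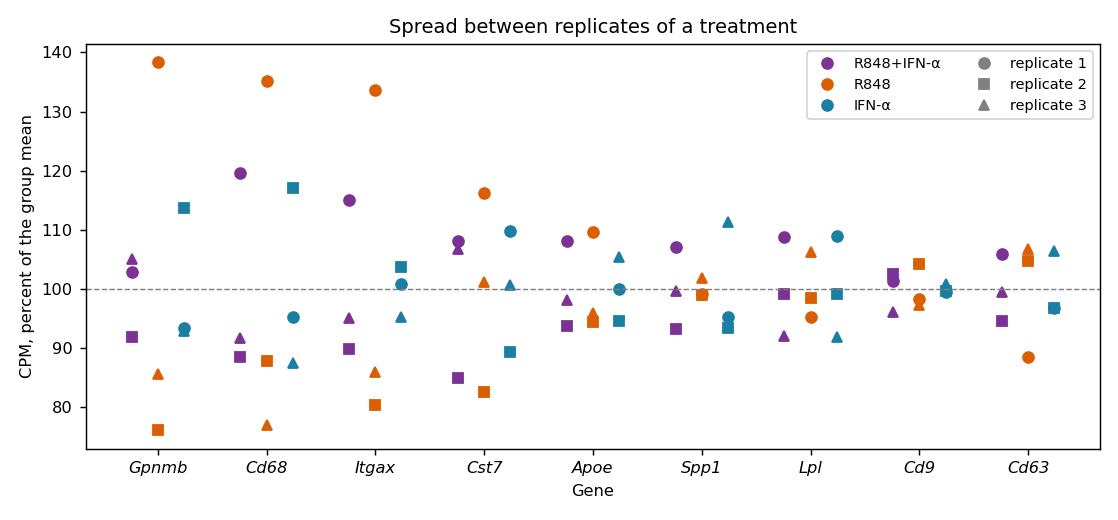
Level of each library as a percent of its own group mean, with the group mean at 100 (dashed line). R848 replicate 1 (filled circle, R848 colour) lies at 138%, 135% and 134% for Gpnmb, Cd68 and Itgax, and no library of Cd9 is as far from its mean.

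Cd9 and Cd63 are tetraspanins, membrane proteins that gather integrins and other partners: Cd9 lies mainly at the cell surface, and Cd63 in late endosomes, lysosomes and the exosomes that bud from them. Cd9 (chromosome 6, 125460266 to 125494791, minus strand) measured 509, 515 and 483 CPM in R848+IFN-α, 538, 570 and 532 CPM in R848, and 555, 557 and 563 CPM in IFN-α. The R848+IFN-α libraries lay below all others by a small margin, and R848 and IFN-α overlapped. The difference was -0.12 ± 0.079 in R848+IFN-α against R848 (adjusted p 0.239) and -0.15 ± 0.079 in R848+IFN-α against IFN-α (adjusted p 0.145), and neither passed the test. Both passed with upper-quartile factors, at -0.26 (adjusted p 0.00862) and -0.24 (adjusted p 0.0178), and with library totals, at -0.51 and -0.46. R848 against IFN-α gave -0.03 ± 0.079, with an interval of -0.19 to 0.13 (adjusted p 0.806), and the sign turned to 0.02 (upper-quartile factors) and 0.05 (library totals) but not with DESeq2's size factors (-0.04).

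Cd63 (chromosome 10, 128900989 to 128912822, plus strand) measured 254, 227 and 239 CPM in R848+IFN-α, 203, 240 and 245 CPM in R848, and 267, 267 and 293 CPM in IFN-α. All 3 IFN-α libraries lay above every library with R848, and the R848+IFN-α and R848 libraries overlapped. Cd63 was lower in R848 than in IFN-α by -0.27 ± 0.093, or 0.831-fold (adjusted p 0.0225). Scaling by upper-quartile factors (adjusted p 0.0601), scaling by library totals (0.305) and leaving out IFN-α replicate 3 (0.117) each ended that call. R848+IFN-α against IFN-α gave -0.20 ± 0.093 (adjusted p 0.103), with an adjusted p of 0.0230 without R848 replicate 1, 0.0165 under upper-quartile factors and 0.00223 under library totals. R848+IFN-α against R848 gave 0.07 ± 0.093 (adjusted p 0.603), with the sign turned under upper-quartile factors (-0.06) and library totals alone (-0.32, adjusted p 0.0398).

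Per kilobase of exon the order of the 9 genes in IFN-α was Apoe, Spp1 (2648 CPM per kb), Cd68 (392), Gpnmb (293), Cd9 (273), Cd63 (74.8), Cst7 (24.7), Lpl (8.65) and Itgax (3.20). In R848+IFN-α the order was the same, with Spp1 at 2101, Cd68 at 374, Gpnmb at 264, Cd9 at 246, Cd63 at 65.2, Cst7 at 36.1 and Lpl at 10.4 CPM per kb. In R848, Cd9 (267 CPM per kb) stood above Gpnmb (178) and Lpl (21.3) above Cst7 (10.1). Levels per kilobase depend on the annotated exon length, so neighbours that lie close, such as Gpnmb and Cd9 in IFN-α, were not set apart by them.

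Among all 11002 genes, 35.9% were called in R848+IFN-α against R848, 33.2% in R848+IFN-α against IFN-α and 37.4% in R848 against IFN-α. In R848+IFN-α against R848, 2 of the 9 genes were called higher (Cst7 and Spp1, against 19.2% of all genes) and 1 lower (Lpl, against 16.7%). The libraries of 4 did not overlap, against 45.0% of all genes. That split became 1 higher and 2 lower with upper-quartile factors and 1 higher and 5 lower with library totals alone. In R848+IFN-α against IFN-α, 2 were called higher (Cst7 and Itgax, against 18.5%) and 1 lower (Spp1, against 14.7%), and 6 did not overlap, against 46.2%. The split became 2 higher and 3 lower with upper-quartile factors and 1 higher and 6 lower with library totals alone. All genes moved the same way under these scalings. With library totals, their median log2 fold change shifted by -0.39 against R848 and -0.31 against IFN-α. With upper-quartile factors it shifted by -0.13 and -0.08. The splits over all genes under these scalings are given at the end.

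In R848 against IFN-α, 2 of the 9 genes were called higher (Lpl and Itgax, against 18.4%) and 4 lower (Cst7, Spp1, Gpnmb and Cd63, against 19.0%), or 2 higher and 2 lower with upper-quartile factors. The libraries of 6 did not overlap, against 46.4% of all genes. The median log2 fold change over the 9 genes was 0.09 in R848+IFN-α against R848, -0.09 in R848+IFN-α against IFN-α and -0.27 in R848 against IFN-α, beside -0.03, -0.01 and 0.02 over all genes. The median absolute change was 0.23, 0.20 and 0.57, beside 0.35, 0.33 and 0.36 over all genes. When the 3 groups were tested together, Lpl (adjusted p 1.67e-12), Cst7 (2.67e-09), Spp1 (2.65e-06), Itgax (3.07e-06) and Cd63 (0.0398) were called, against 50.3% of all genes. Gpnmb (0.0690), Apoe (0.131), Cd9 (0.213) and Cd68 (0.492) were not. The comparisons share libraries and are not independent of each other.

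Among 24 further genes of disease-associated microglia, 8 were higher and 12 lower in R848 than in IFN-α. R848+IFN-α had 11 higher and 5 lower than R848, which became 8 higher and 9 lower with upper-quartile factors and 4 higher and 12 lower with library totals alone. Against IFN-α it had 10 higher and 10 lower, or 6 higher and 11 lower with library totals. Of all genes, 18.4% were higher and 19.0% lower in R848 against IFN-α. The shares were 19.2% and 16.7% in R848+IFN-α against R848, and 18.5% and 14.7% in R848+IFN-α against IFN-α. These shares also stand beside the counts of the lists below, and no list was tested as a set. Axl, a receptor tyrosine kinase that helps clear dying cells and is induced by interferon, averaged 605 ± 43.1 CPM in R848+IFN-α, 161 ± 8.80 CPM in R848 and 488 ± 16.7 CPM in IFN-α. Cd83, a surface protein of activated antigen-presenting cells, averaged 716 ± 51.9 CPM in R848+IFN-α, 232 ± 17.2 CPM in R848 and 132 ± 11.9 CPM in IFN-α. Between the single agents, Axl was lower in R848 than in IFN-α by -1.60 ± 0.088 (adjusted p 1.04e-15), as was the fatty acid carrier Fabp5 by -1.83 ± 0.11. The iron store Fth1 was higher in R848 by 1.45 ± 0.085 and Cd52 by 1.38 ± 0.12.

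Trem2 itself averaged 214 ± 20.7 CPM in R848+IFN-α, 223 ± 23.6 CPM in R848 and 407 ± 49.9 CPM in IFN-α, and was lower in R848 than in IFN-α by -0.87 ± 0.10 (adjusted p 2.10e-08). Tyrobp averaged 233 ± 13.1 CPM in R848+IFN-α, 302 ± 29.7 CPM in R848 and 360 ± 31.1 CPM in IFN-α. Both were also lower in R848+IFN-α than in IFN-α, by -0.92 ± 0.10 for Trem2 and -0.62 ± 0.094 for Tyrobp. Of the 11 genes of TREM2 signalling, 2 were higher and 6 lower in R848 than in IFN-α, where the kinase Syk was higher by 2.73 ± 0.12 and the phosphatase Inpp5d lower by -1.90 ± 0.11. Clec7a, the β-glucan receptor dectin-1, averaged 582 ± 18.9 CPM in R848+IFN-α, 718 ± 103 CPM in R848 and 391 ± 22.4 CPM in IFN-α, and was higher in R848 than in IFN-α by 0.88 ± 0.093.

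**Figure D4:**
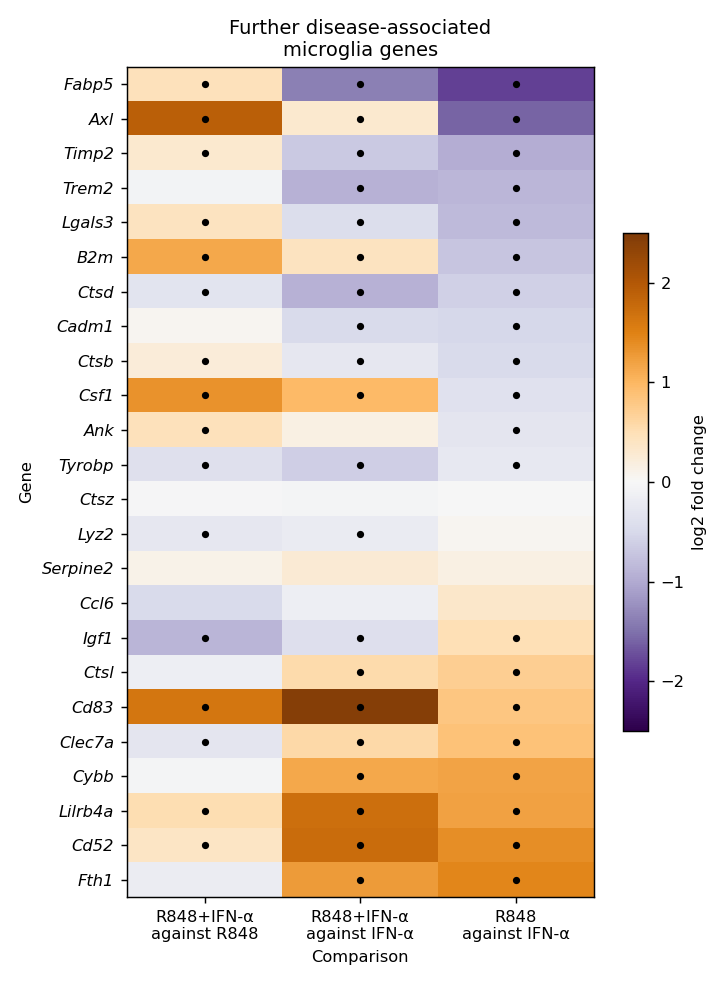
Log2 fold change of 24 further genes of disease-associated microglia in the 3 comparisons, ordered by R848 against IFN-α. Orange is higher and purple lower in the first-named treatment, and dots mark an adjusted p under 0.05. Fabp5, Axl and Trem2 are among the genes lower in R848 than in IFN-α, and Fth1, Cd52 and Clec7a among those higher.

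Of 17 homeostatic microglia genes tested from a list of 20, 3 were higher and 9 lower in R848 than in IFN-α, and 3 were higher and 10 lower in R848+IFN-α than in IFN-α, or 0 higher and 12 lower with library totals alone. P2ry12, the ADP receptor by which resting microglia sense injury, averaged 9.12 ± 3.54 CPM in R848+IFN-α, 2.41 ± 0.561 CPM in R848 and 40.8 ± 2.71 CPM in IFN-α. P2ry13 averaged 14.5 ± 2.30 CPM in R848+IFN-α, 1.20 ± 0.503 CPM in R848 and 144 ± 6.65 CPM in IFN-α. Both were higher in R848+IFN-α than in R848, P2ry13 by 3.59 ± 0.30 and P2ry12 by 1.92 ± 0.32. In that comparison 7 homeostatic genes were higher and 5 lower, or 5 and 6 with upper-quartile factors and 4 and 7 with library totals. Tmem119, another marker of resting microglia, had few counts, with sums of 5, 38 and 25 counts in R848+IFN-α, R848 and IFN-α. Unlike P2ry12 and P2ry13, it was lower in R848+IFN-α than in R848, by -2.84 ± 0.60 (adjusted p 0.000333). It was also lower in R848+IFN-α than in IFN-α, by -2.47 ± 0.64 (adjusted p 0.00325).

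Around Apoe and Lpl, 23 of 26 genes of lipoprotein and lipid handling were tested, of which 4 were higher and 11 lower in R848 than in IFN-α, or 6 and 10 with upper-quartile factors. The cholesterol exporter Abcg1 averaged 17.8 ± 3.22 CPM in R848+IFN-α, 6.34 ± 1.09 CPM in R848 and 51.2 ± 6.79 CPM in IFN-α. Plin2, which coats lipid droplets, averaged 619 ± 12.1 CPM in R848+IFN-α, 267 ± 11.9 CPM in R848 and 748 ± 9.43 CPM in IFN-α. Both were lowest in R848, where Lpl was highest. Olr1, a receptor for oxidised LDL, was higher in R848 than in IFN-α by 4.51 ± 0.21. Abca1, which loads Apoe with lipid, was lower in R848+IFN-α than in R848 by -0.50 ± 0.082 (adjusted p 1.14e-05) and gave -0.09 ± 0.082 in R848 against IFN-α (adjusted p 0.430). Gpihbp1, which anchors lipoprotein lipase on capillaries, had 0 counts in all 3 groups. Relative to R848, 8 lipid genes were higher and 6 lower in R848+IFN-α, or 5 and 10 with library totals, and relative to IFN-α 5 were higher and 9 lower, or 4 and 12.

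Among the cystatins and cysteine proteases around Cst7, 9 of 10 genes were tested, with Cst7 itself counted. In R848 against IFN-α, 2 were higher and 6 lower. Cathepsin C (Ctsc), an enzyme that cystatin F restrains, followed the same order as Cst7, averaging 1181 ± 119 CPM in R848+IFN-α, 582 ± 31.9 CPM in R848 and 913 ± 30.8 CPM in IFN-α. Legumain (Lgmn), another lysosomal cysteine protease, averaged 423 ± 37.6 CPM in R848+IFN-α, 336 ± 8.31 CPM in R848 and 679 ± 45.1 CPM in IFN-α. Relative to R848, 5 of the 9 were higher in R848+IFN-α and none lower at an adjusted p under 0.05, which became 3 and 2 with upper-quartile factors and 2 and 2 with library totals. Against IFN-α the split was 4 and 3, or 3 and 4 with upper-quartile factors and 0 and 5 with library totals.

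Of the osteopontin receptors, 7 of 9 were tested, of which 3 were higher and 2 lower in R848 than in IFN-α and 4 were higher and 3 lower in R848+IFN-α than in IFN-α. Cd44 averaged 2059 ± 148 CPM in R848+IFN-α, 2145 ± 159 CPM in R848 and 911 ± 96.8 CPM in IFN-α. It gave -0.06 ± 0.086 in R848+IFN-α against R848 (adjusted p 0.633). Cd44 was lowest in IFN-α, where Spp1 was highest, and was higher in R848 than in IFN-α by 1.24 ± 0.088. Integrin chains went both ways in that comparison: Itga5 was higher by 1.91 ± 0.12, and Itgb5 was lower by -1.81 ± 0.10 and Itga4 by -1.45 ± 0.097. Relative to R848, R848+IFN-α had 2 higher and 1 lower, or 1 and 2 with upper-quartile factors and 0 and 4 with library totals.

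Among the β2 integrins, Itgax and Itgal were higher in R848 than in IFN-α, 2 of 4 tested, and the other 2 were not called. Itgal, the αL chain, averaged 95.8 ± 5.02 CPM in R848+IFN-α, 132 ± 25.8 CPM in R848 and 31.3 ± 4.96 CPM in IFN-α. Itgb2, the partner of Itgax, gave 0.43 ± 0.19 in that comparison (adjusted p 0.118). Itgam, the αM chain, gave -0.01 ± 0.11 (adjusted p 0.964). Relative to R848, R848+IFN-α had none of the 4 higher and 1 lower (Itgal), or 4 lower with library totals.

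Of the 14 lysosomal membrane and MiT factor genes, with Gpnmb and Cd68 counted, 3 were higher and 7 lower in R848 than in IFN-α. The MiT factor genes Mitf and Tfe3 were higher in R848 than in IFN-α, by 1.87 ± 0.11 and 0.80 ± 0.13, where Gpnmb was lower. Tfec was also higher there, by 2.83 ± 0.17, but Tfeb was not called, at -0.38 ± 0.23 (adjusted p 0.200). In R848+IFN-α, Tfeb was lower than in R848 by -0.89 ± 0.26 and lower than in IFN-α by -1.28 ± 0.26. Mitf averaged 131 ± 7.07 CPM in R848+IFN-α, 174 ± 14.3 CPM in R848 and 47.5 ± 6.64 CPM in IFN-α. The lysosomal membrane proteins Lamp1 and Lamp2 were lower in R848, by -0.30 ± 0.076 and -0.82 ± 0.098. Between R848+IFN-α and R848, 3 of the 14 were higher and 4 lower (19.2% and 16.7% of all genes), or 2 and 7 with library totals. Against IFN-α 3 were higher and 6 lower (18.5% and 14.7% of all genes), or 3 and 11 with library totals.

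Of the 15 tetraspanins and partners, with Cd9 and Cd63 counted, 2 were higher and 6 lower in R848 than in IFN-α. Cd82 averaged 45.6 ± 5.21 CPM in R848+IFN-α, 87.1 ± 4.44 CPM in R848 and 38.0 ± 1.71 CPM in IFN-α, highest in R848 as Lpl was. Syntenin (Sdcbp), which binds the tail of Cd63 and helps load exosomes, averaged 1854 ± 74.5 CPM in R848+IFN-α, 864 ± 139 CPM in R848 and 1631 ± 67.8 CPM in IFN-α. For R848+IFN-α against R848 the split was 5 higher and 3 lower, beside 19.2% and 16.7% of all genes. It became 1 and 4 with upper-quartile factors and 1 and 7 with library totals. Against IFN-α it was 4 and 3, beside 18.5% and 14.7% of all genes, or 1 and 6 and 1 and 7 under those scalings.

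Across the 9 libraries, the genes with the most similar profile of log2 CPM were named for each of the 9 genes out of 9509 candidates, by Pearson's r over libraries that share 3 treatments and their depth. For Lpl they were Hnrnpab (0.994), Slc16a10 (0.990) and Dtx4 (0.987), and for Cst7 they were B4galt5 (0.994), Usb1 (0.994) and Mid1 (0.993). For Spp1 they were Lgmn (0.976), Sepp1 (0.975) and Arsb (0.974), and for Itgax they were Samd4b (0.989), Slc20a1 (0.982) and Hsp90ab1 (0.979). Gpnmb was closest to Arhgap17 (0.973), Ints9 (0.957) and Dcakd (0.957), and Cd68 to Ucp2 (0.933), Laptm5 (0.920) and Pld3 (0.919). Cd9 was closest to Slc25a26 (0.966), Mmachc (0.962) and Cyb561d2 (0.955), Cd63 to Nif3l1 (0.971), Lrrtm2 (0.966) and Atg10 (0.961), and Apoe to Rabepk (0.946), Acaa2 (0.897) and Vps51 (0.895). Among the 9 genes themselves, r was 0.867 for Spp1 with Cd63 and 0.846 for Gpnmb with Cd68, and -0.854 for Lpl with Spp1 and -0.847 for Lpl with Cst7.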

How the data were processed

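For each library the authors deposited raw counts of read pairs in genes, in unstranded, forward-strand and reverse-strand columns. The submitters' processing notes name STAR 2.5.1, Trimmomatic 0.33, CASAVA 1.8.2 and DESeq2 on build mm10, with an annotation not given in the sources used here. Per the labels' protocols, ribosomal RNA was removed, strand-keeping libraries were made and 101 cycles were read from each end. Reverse-strand counts were used, since forward-strand counts made up 1.09% to 1.50% of both strands.

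Read pairs in no feature (39.3% to 44.4%), unmapped (19.8% to 26.3%), multi-mapping (7.22% to 8.51%) and ambiguous (0.139% to 0.191%) were left out of totals and tests. Genes were filtered with edgeR 4.0.16's filterByExpr (minimum count 10, minimum total 15) and scaled with TMM factors. Groups were compared over all 9 libraries with the quasi-likelihood F test (robust fit, limma 3.58.1, R 4.3.3), and p-values were adjusted by Benjamini-Hochberg over all 11002 genes tested. A gene was called at an adjusted p under 0.05. A gene was called above or below both single agents where its changes from each had the same sign and the larger of the pair of p-values passed once adjusted. CPM was computed with edgeR's cpm function and the TMM factors, errors of CPM are SD, and errors of log2 fold changes are approximate SE from the F statistic.

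Positions and exon lengths are from GENCODE mouse release 21 on GRCm38 (mm10 is its other name), and promoter windows are from RefSeq. Each listed gene named with a change was, per list and comparison, among the 4 called genes with the largest absolute change or in a fixed set of receptors, ligands and enzymes with roles next to the 9 genes. Likeness was Pearson's r of log2 CPM (prior count 2) among genes of at least 5 CPM on average, predicted and clone-named genes left out, and the top 3 were named. The 9 genes and all lists were chosen with earlier results of these data known. Replicates of a group differed by more than sampling noise, with chi-square per degree of freedom of 1.92 to 6.27 over genes with at least 20 counts in a pair, and each library counted as 1 sample. Intervals of log2 fold changes come from the same edgeR fit and take in the spread among libraries. Sums of counts are given without a replicate spread. The 20 alternative settings were other scalings, filters, strand column, samples, the replicate number as a block, each library left out and DESeq2 1.42.0.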

Additional observations from a re-analysis of the deposited data

Results flagged for a closer look

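The forward-strand counts were not part of the reverse-strand counts behind the main comparisons, and entered only the alternative with unstranded counts. They held reads at each of the 9 genes, above the 3 counts that a sum of 0 allows. Summed over the 9 libraries they came to 1047 for Apoe, 282 for Spp1, 160 for Gpnmb, 47 for Cd68, 33 for Cd63, 22 for Cd9, 13 for Itgax, 11 for Lpl and 11 for Cst7. As a share of both strands that was 1.62% for Cst7 and 1.52% for Itgax, and 0.145% to 0.467% for the other 7, beside 1.30% over all genes. Cd9 has 218 exonic bases opposite the predicted gene Gm26728. With unstranded counts in place of reverse-strand counts, no call of the 9 genes in the 3 comparisons changed.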

How the results depend on the processing

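Of the calls, 8 held in all 20 alternatives: Lpl and Cst7 in R848+IFN-α against R848, Spp1 and Itgax in R848+IFN-α against IFN-α, and Lpl, Cst7, Spp1 and Itgax in R848 against IFN-α. Among the other 4, that of Gpnmb in R848 against IFN-α ended mainly when single libraries were left out. Library totals alone shifted the median of all genes by -0.39 in R848+IFN-α against R848, -0.31 against IFN-α and 0.08 in R848 against IFN-α, and upper-quartile factors by -0.13, -0.08 and 0.05. With upper-quartile factors, 1 of the 9 genes was higher and 2 were lower in R848+IFN-α against R848, 3 were lower against IFN-α, and 2 were lower in R848 against IFN-α. Signs turned for Cd63 (-0.065) and Apoe (-0.044) in R848+IFN-α against R848 and for Cd9 (0.020) in R848 against IFN-α.

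With library totals alone, genes called in R848+IFN-α against R848 numbered 6157, against 3947, with 1715 higher and 2861 lower under upper-quartile factors and 1173 higher and 4984 lower under totals, beside 2112 and 1835. In R848+IFN-α against IFN-α the splits were 1697 and 2091, and 1044 and 3768, beside 2035 and 1617. Of the 9 genes, 1 was higher and 5 lower in R848+IFN-α against R848, and 1 higher and 6 lower against IFN-α. Signs turned for Cd63 (-0.32), Apoe (-0.29), Cd68 (-0.11) and Spp1 (-0.15) in R848+IFN-α against R848, Lpl (-0.037) in R848+IFN-α against IFN-α and Cd9 (0.048) in R848 against IFN-α. The cause was not tested.

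Leaving out each library in turn gave 3213 to 4070 genes called in R848+IFN-α against R848, 3029 to 4221 in R848+IFN-α against IFN-α and 3658 to 4253 in R848 against IFN-α. Of the 9 genes, 1 to 4 were higher and 1 lower in R848+IFN-α against R848, 2 to 3 higher and 1 to 2 lower in R848+IFN-α against IFN-α, and 2 higher and 2 to 6 lower in R848 against IFN-α, with 0 to 1 outside both single agents. The 4 came without R848 replicate 1, which moved Gpnmb and Cd68 past the threshold there, and the 1 without R848+IFN-α replicate 1, R848+IFN-α replicate 3 or R848 replicate 2, which ended the call of Spp1. Small changes turned sign: Itgax in R848+IFN-α against R848 ran from -0.18 to 0.23 and Cd63 from -0.00098 to 0.12, both turned without R848 replicate 1, and Itgax also without R848+IFN-α replicate 2 (0.0064). Cd68 in R848+IFN-α against IFN-α ran from -0.21 to 0.061, and turned without R848+IFN-α replicate 2 (0.011) or IFN-α replicate 2. Without R848 replicate 1 and R848+IFN-α replicate 3 together, 4 genes were higher in R848+IFN-α against R848, 0 lay outside both single agents, and Itgax was 0.28. DESeq2 also put 0 outside both single agents. With only the 2 groups compared in the fit, 2 were lower in R848+IFN-α against IFN-α.

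Replicate numbers did not pair the libraries: deviations of same-numbered libraries correlated from -0.101 to 0.0587, and 3 of 9 libraries correlated best with their own number. With the replicate number as a block, 3995, 3701 and 4147 genes were called in the 3 comparisons, and of the calls of the 9 genes only Gpnmb in R848 against IFN-α was lost, at -0.76 (adjusted p 0.0705). Depth limits Cst7 and Itgax most, with 100 counts of Cst7 in R848 and 130 of Itgax in IFN-α.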
